A study of Mus musculus with 12 samples.

Results

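Neutrophils carry a small set of abundant transcripts, and the chemokines that call them into tissue form another. The 10 genes described here, of 19938 measured, join both: S100a8, S100a9, Csf3r, Cxcr2, Mmp8, Mmp9, Il1b, Cxcl1, Cxcl2 and Cxcl5. They were taken by symbol, and each was read by 1 probe set. RNA came from epithelium that was laser-microdissected from stained sections of intestinal tumors, or of the epithelium next to them, in male C57BL6/J APCmin/+ mice aged 25 weeks. All animals carried APCmin/+, an inactivated copy of Apc that gives rise to intestinal adenomas. The arrays labelled KO came from FSPCre-PPARB -/- mice, in which Cre under the promoter of fibroblast-specific protein, S100a4, deletes the nuclear receptor gene Ppard. Those labelled floxed came from PPARB flox/flox littermates. Tumor epithelium had 3 arrays for each genotype, and adjacent epithelium had 2 for each. Another 2 adjacent arrays carried genotype labels that contradict each other. The first of them is KO by title and floxed by genotype characteristic, and the second is the reverse. They are given as conflict arrays 1 and 2 and were used only to compare the tissues across all 12 arrays. Which animal an array came from is not labelled. If arrays of the same group shared an animal, the p-values are too small. If a tumor and an adjacent array shared one, the tissue comparisons leave out that pairing. The p-values measure only the spread between these arrays, which may be technical.

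As background, S100A8 and S100A9 pair to form calprotectin, the most abundant protein of the neutrophil cytosol, which binds metal ions and is the marker measured in stool in intestinal inflammation. Cxcl1, Cxcl2 and Cxcl5 encode chemokines that act on CXCR2, the receptor that draws neutrophils out of blood, while Csf3r encodes the receptor for G-CSF, the growth factor of the lineage. Mmp8 and Mmp9 encode neutrophil collagenase and gelatinase B, which are stored in granules, and Il1b encodes interleukin-1beta, a cytokine of activated myeloid cells that induces these chemokines in epithelium and stroma. Epithelial cells can also make S100a8, S100a9 and the chemokines, so none of these genes marks neutrophils alone. In such dissected tissue fewer cells of a type and less RNA per cell cannot be told apart.

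The start regions of the members with a called difference, or that lie side by side, are shown first. RefSeq promoters of build GRCm38.p6 were found for 8 of the 10 genes, and Cxcl5 and Mmp9 were not among them. The neighbours S100a8 and S100a9 are read from opposite strands of chromosome 3, and Il1b lies on chromosome 2. Their 250 bases before the annotated start are written 5′ to 3′ on the strand of the gene. Capitals mark the C/EBP-type letters TTNNGNAA on either strand and, on the gene strand, the TATA-box letters TATAAA.
S100a8 (chr3:90668821-90669070, plus strand): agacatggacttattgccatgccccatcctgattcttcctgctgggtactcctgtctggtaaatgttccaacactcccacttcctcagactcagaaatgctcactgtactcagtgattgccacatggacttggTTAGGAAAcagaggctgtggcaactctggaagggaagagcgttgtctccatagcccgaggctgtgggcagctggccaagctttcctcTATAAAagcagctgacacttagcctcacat
S100a9 (chr3:90695722-90695971, minus strand): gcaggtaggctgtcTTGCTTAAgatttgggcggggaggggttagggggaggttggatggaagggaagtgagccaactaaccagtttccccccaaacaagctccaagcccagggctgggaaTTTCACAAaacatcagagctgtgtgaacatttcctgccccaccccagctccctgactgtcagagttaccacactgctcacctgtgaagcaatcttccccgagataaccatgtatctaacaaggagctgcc
Il1b (chr2:129371140-129371389, minus strand): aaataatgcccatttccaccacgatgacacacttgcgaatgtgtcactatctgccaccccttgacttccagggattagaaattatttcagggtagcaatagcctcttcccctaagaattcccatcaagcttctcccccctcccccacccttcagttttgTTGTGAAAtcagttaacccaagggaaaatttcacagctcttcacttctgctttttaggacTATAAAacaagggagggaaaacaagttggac
S100a8 and Il1b each hold 1 C/EBP-type and 1 TATA match, and S100a9 holds 2 C/EBP-type matches. C/EBP-type letters stood in 5 of the 8 members and in 36.8% of all 32851 promoters of this length, and TATAAA in 2 of 8 and in 7.59%. Cxcl1 and Cxcl2 neighbour each other on chromosome 5, and the stretches below hold their matches, in capitals, to an NF-kB-type motif on either strand: GGG, any pair of bases, then TTTCC.
Cxcl1 (chr5:90891136-90891203, plus strand): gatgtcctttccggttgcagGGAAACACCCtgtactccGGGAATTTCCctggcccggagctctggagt
Cxcl2 (chr5:90903782-90903850, plus strand): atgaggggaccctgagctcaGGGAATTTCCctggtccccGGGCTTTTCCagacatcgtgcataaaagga
Each of these 2 chemokine genes holds 2 such matches, and 1 of them, GGGAATTTCC, is the same in both. Cxcl1 and Cxcl2 were the only 2 of the 8 members with this match, which 1.41% of all promoters hold. A match is a description of the sequence and not a binding site.

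The arrays differed in quality along the lines of genotype. Both floxed adjacent arrays and floxed tumor arrays 1 and 2 had a median correlation with the other arrays under 0.7 and are called weak-signal arrays, while all KO arrays and floxed tumor array 3 did not. The SD of values within an array was 1.04 to 1.09 on the weak-signal arrays and 1.49 to 1.57 on the other 8. The 11 markers of epithelium averaged 6.44 to 7.26 (log2) on the 5 KO arrays, 4.99 to 5.97 on the weak-signal arrays and 7.97 on floxed tumor array 3. The targeted gene, Ppard, read 6.06, 6.07 and 6.50 in KO tumor against 4.95, 4.48 and 5.79 in floxed tumor, a difference of 1.14 ± 0.33 (SE) that did not pass (adjusted p = 0.0991). Cre was under the promoter of fibroblast-specific protein, while the RNA came from epithelium. Whether the cells measured had lost Ppard was not tested. The sources used here do not give where the probes of Ppard lie relative to the deleted part. A further check set the tissue labels against 11 measured targets of Wnt signalling, which Apc loss raises. Within KO, all 11 read lower in the arrays labelled tumor than in those labelled adjacent (median difference −0.94), which goes against the labels. Within floxed, 6 lay above 0 and 5 below (median difference 0.03). Tissue is therefore named below only as the labels give it. On the log2 scale 62 of the 120 values of the 10 genes lay above the median of the same array's unnamed probe sets, in 12 of 12 arrays for S100a9 and in none for Cxcl5.

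The calprotectin gene S100a8 was lower in KO than in floxed tumor epithelium, and it was the only 1 of the 10 genes to pass the test there. Its log2 values were 4.58, 5.28 and 5.15 on the floxed arrays and 3.85, 3.65 and 3.33 on the KO arrays. Every KO array lay below every floxed array, by a gap set by floxed array 1, a weak-signal array. The difference was −1.39 ± 0.25 (SE, n = 3 and 3; 95% confidence interval −1.95 to −0.83), with an adjusted p of 0.0438 by limma. S100a8 lay above the median of the unnamed probe sets on 3 of 3 floxed and 0 of 3 KO tumor arrays, and that median itself differed by −0.23 on average between KO and floxed arrays, so the size of the S100a8 difference is uncertain. S100a9, above that median on all 6 tumor arrays, had the same order, with 5.75, 6.16 and 5.47 on floxed and 5.19, 4.99 and 4.96 on KO arrays. The groups did not overlap for S100a9 either, yet its difference of −0.74 ± 0.25 did not pass (adjusted p = 0.125). Across the genome 215 genes passed in this comparison, 1.08% of those tested, of which 136 were higher (0.682%) and 79 lower (0.396%).

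**Figure D1:**
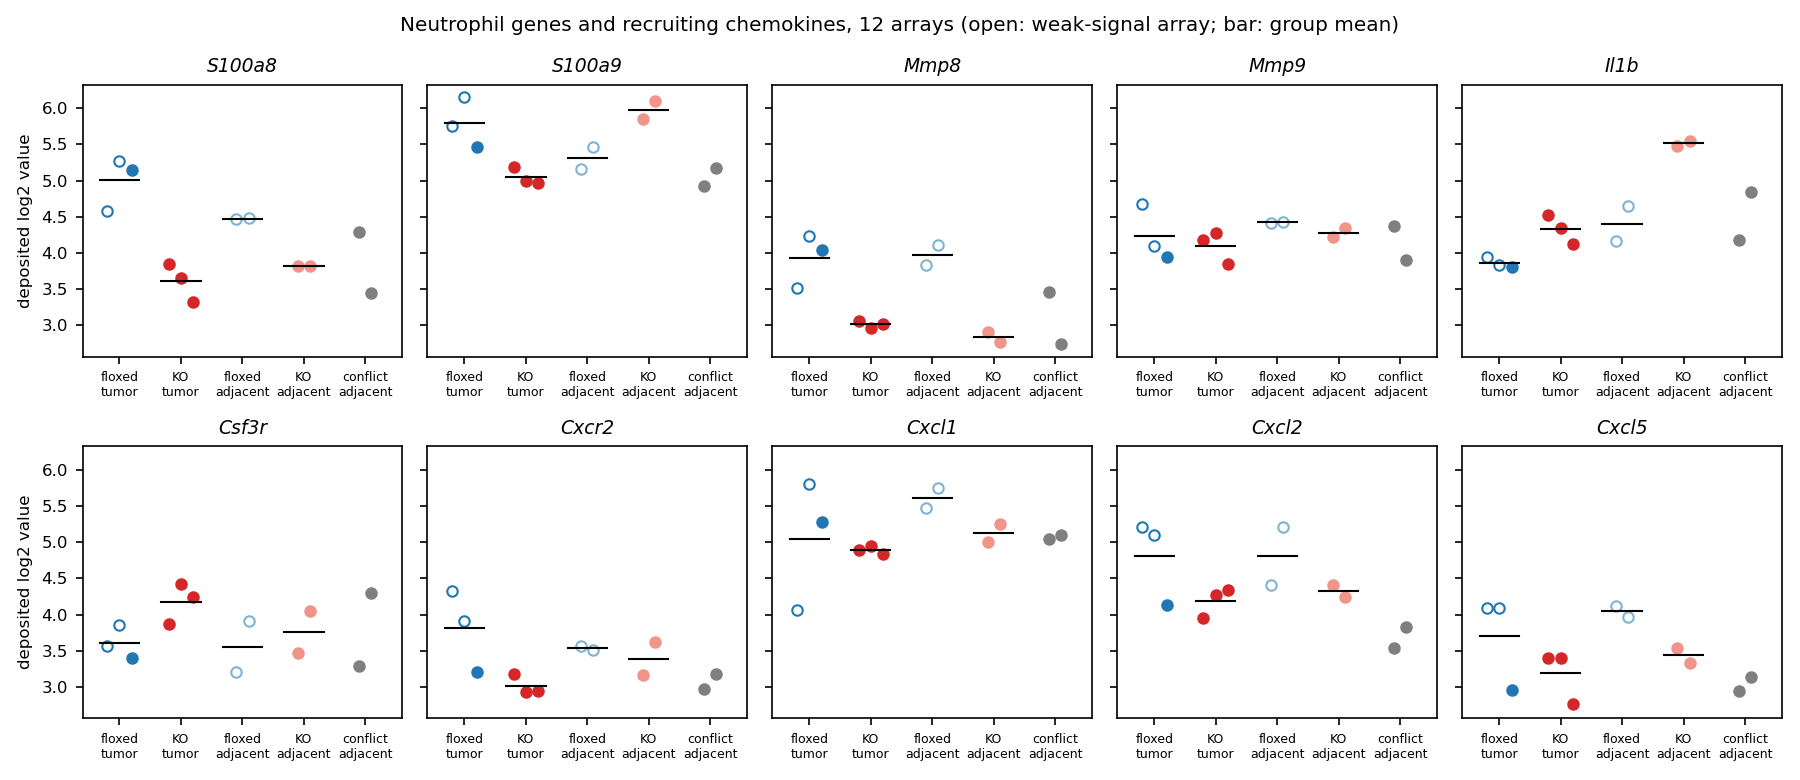
Deposited log2 value of each of the 10 genes on each of the 12 arrays, by label; open points are weak-signal arrays, bars are group means, and conflict arrays have no mean. S100a8 and Mmp8 lie lower on the KO tumor than on the floxed tumor arrays without overlap, and Il1b is highest on the 2 KO adjacent arrays.

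Neither granule enzyme gene passed in tumor epithelium. Mmp8 read 3.51, 4.24 and 4.05 on floxed tumor arrays and 3.06, 2.97 and 3.02 on KO tumor arrays. The KO arrays lay close together below all floxed arrays, and the difference of −0.92 ± 0.25 missed the threshold (adjusted p = 0.0834). Mmp9 read 4.68, 4.10 and 3.94 on floxed and 4.18, 4.28 and 3.85 on KO arrays, which overlapped, with a difference of −0.14 ± 0.26 (adjusted p = 0.775; 95% confidence interval −0.70 to 0.43).

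The receptor genes Cxcr2 and Csf3r had differences of opposite sign, and neither passed. Cxcr2 read 4.33, 3.91 and 3.20 on floxed tumor arrays and 3.18, 2.93 and 2.95 on KO tumor arrays, a difference of −0.79 ± 0.30 (adjusted p = 0.155). The arrays just failed to overlap, since floxed array 3, the one that was not of weak signal, stood barely above the highest KO array. Csf3r read 3.56, 3.86 and 3.41 on floxed and 3.87, 4.42 and 4.25 on KO arrays, a difference of 0.57 ± 0.29 (adjusted p = 0.260). Il1b read 4.52, 4.35 and 4.12 on KO against 3.95, 3.84 and 3.80 on floxed arrays, without overlap, and its difference of 0.47 ± 0.23 did not pass (adjusted p = 0.249).

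None of the CXCR2 ligands passed in tumor epithelium. Cxcl1 varied more among the floxed arrays, at 4.07, 5.80 and 5.27, than among the KO arrays, at 4.89, 4.95 and 4.83, and the difference was −0.15 ± 0.38 (adjusted p = 0.837). Cxcl2 read 5.21, 5.10 and 4.14 against 3.95, 4.27 and 4.34, a difference of −0.63 ± 0.33 (adjusted p = 0.280). Cxcl5 read 4.09, 4.09 and 2.96 against 3.40, 3.40 and 2.76, a difference of −0.52 ± 0.33 (adjusted p = 0.367). For both Cxcl2 and Cxcl5 the weak-signal floxed arrays were the high ones, and floxed array 3 lay within the range of the KO arrays.

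Over the 10 genes, 8 differences were below 0 and the median was −0.57, against −0.01 for all genes, of which 50.4% were below 0. KO and floxed tumor arrays did not overlap for 6 members, 4 lower and 2 higher, and for 27.0% of all genes. With the weak-signal arrays left out, floxed tumor array 3 stood alone against the KO arrays. The median difference of the 10 genes was then −0.07, with 5 above and 5 below 0. The S100a8 call depended on the processing: it held in 8 of 21 alternatives, with values from −1.60 to −1.20 and adjusted p from 0.0047 to 0.211, and no member passed when any 1 array other than floxed tumor array 3 was left out. With the replicate number as a block its adjusted p was 0.0316, and 782 genes passed.

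Which members passed differed with the floxed arrays used. Against floxed tumor array 3 alone, with the weak-signal arrays left out and the lone array assumed to vary like the others, S100a8 (−1.54, adjusted p = 0.0047) and Mmp8 (−1.03, adjusted p = 0.0068) were lower. In that fit 19.4% of all genes passed, and 9.92% of all genes were lower in KO, so passing was common. Against floxed tumor arrays 1 and 2 alone, both weak, 6 members were lower: S100a8 (−1.32), S100a9 (−0.91), Mmp8 (−0.86), Cxcr2 (−1.10), Cxcl2 (−0.97) and Cxcl5 (−0.90). There 29.1% of all genes passed, and 15.1% of all genes were lower. S100a8 and Mmp8 were lower in both of these fits, which share the same KO tumor arrays. Neither gene lay above the median of the unnamed probe sets on any KO array, and Mmp8 did so on 1 of 3 floxed tumor arrays. The differences of Cxcl2 (0.05) and Cxcl5 (0.23) lay above 0 against array 3, and that of Cxcr2 was −0.18. The part of signal strength in the latter differences was not tested.

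**Figure D2:**
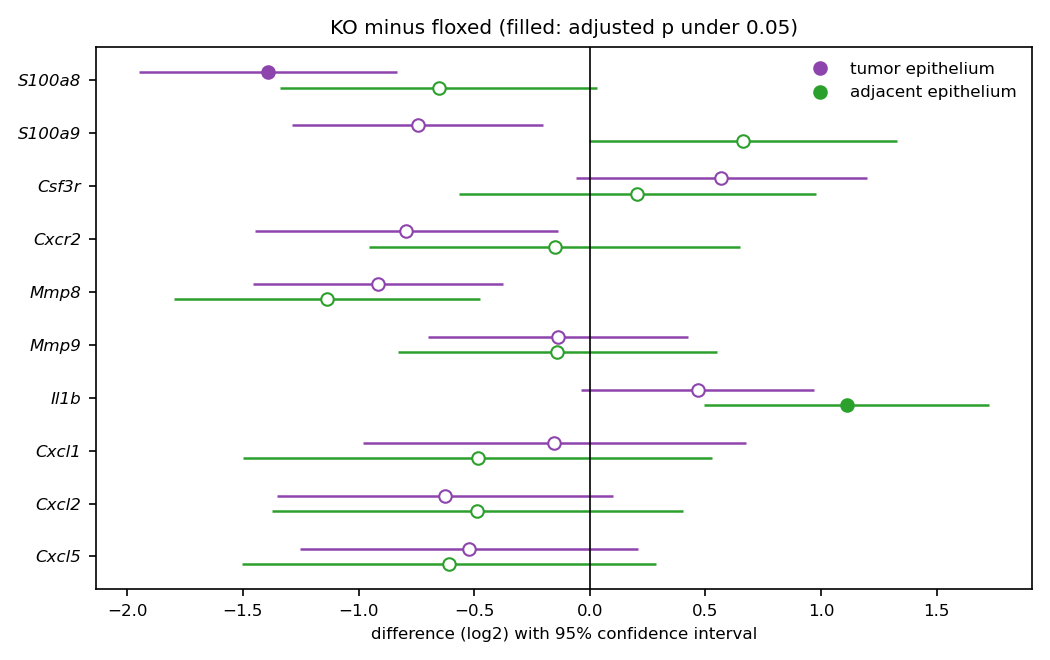
KO minus floxed difference (log2) of the 10 genes with its 95% confidence interval, in tumor epithelium (3 against 3 arrays, purple) and adjacent epithelium (2 against 2 arrays, green); filled points have an adjusted p under 0.05. S100a8 in tumor (−1.39) and Il1b in adjacent epithelium (1.11) are filled, and S100a9 lies on opposite sides of 0.

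Other genes of the same biology were read from lists. In the fit with all 4 groups, no gene of the 7 lists passed between genotypes in tumor epithelium. Among 14 other neutrophil granule proteins the median difference was −0.34, with 9 below 0. The smallest p belonged to the neutrophil granule protein gene Ngp (−0.88, adjusted p = 0.112), Chil3 (−1.29) and the lactoferrin gene Ltf (−0.55). For 19 neutrophil surface and marker genes the median was −0.31, with 13 below 0. The leading values there were Retnlg (−0.79, adjusted p = 0.107), the activating receptor gene Trem1 (−0.99) and Clec4d (−0.70). The 12 other CXC chemokines had a median of −0.02 and were led by Pf4 (−1.07, adjusted p = 0.0766) and Cxcl3 (−0.97), another CXCR2 ligand. Against floxed tumor array 3 alone, the median of the granule proteins was 0.35, with 9 of 14 above 0. That of the surface and marker genes was then 0.08, with 10 of 19 above 0, and that of the CXC chemokines −0.085. Single neutrophil genes went both ways against that array. Hp, Prtn3 and Ly6g read higher in KO, and Retnlg and Slfn4 read lower. The median of the unnamed probe sets differed by −0.23 on average between all KO and floxed tumor arrays.

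Signals upstream of the chemokines did not pass either in the fit with all 4 groups. For 21 such genes the median was −0.13, with the cytokine gene Tnf at −0.91 (adjusted p = 0.0684) and the endotoxin receptor gene Tlr4 at −0.98 (adjusted p = 0.0719). Of 9 genes that process or release interleukin-1beta, 6 were below 0, and Casp1, which encodes the caspase that cleaves the precursor, read −0.92 (adjusted p = 0.119). Against floxed tumor array 3 alone, the median of the upstream genes was −0.01, with 12 below 0 and 9 above. That of the processing genes was then −0.53, with 7 below 0 and 2 above. Matrix metalloproteinases and their inhibitors, 12 genes, had a median of 0.02 with Mmp14 at 0.96 (adjusted p = 0.107). The 16 other S100 proteins and calprotectin receptors had a median of 0.19. Within that list Cd14, the endotoxin co-receptor gene, read −1.42 (adjusted p = 0.0743) and S100a16 1.05 (adjusted p = 0.0766). S100a4, whose promoter drives Cre here, read 0.90 (adjusted p = 0.125).

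**Figure D3:**
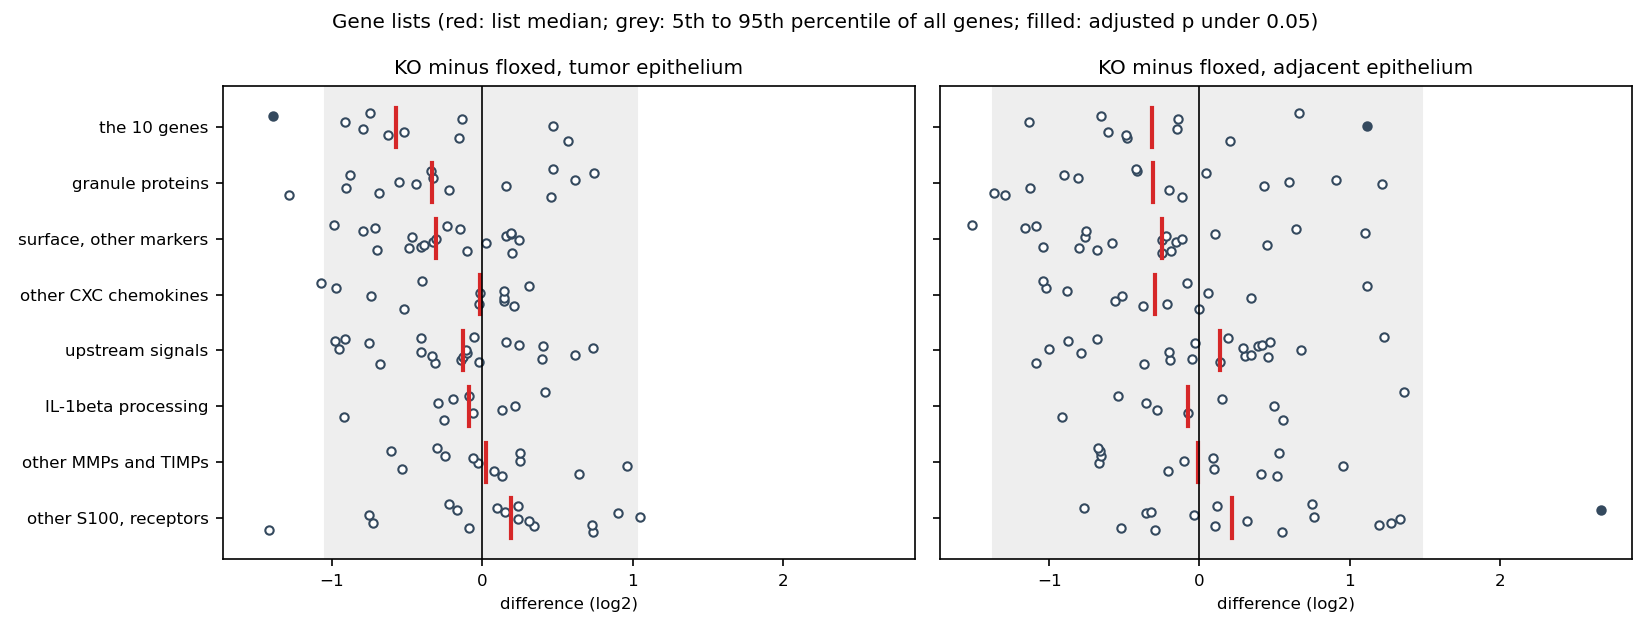
KO minus floxed difference (log2) of each gene of 8 lists, the 10 genes on top, in tumor (left) and adjacent epithelium (right); red bars are list medians, the grey band spans the 5th to 95th percentile of all genes, and filled points have an adjusted p under 0.05. List medians lie between −0.57 and 0.22, inside the grey band, and the filled points are S100a8, Il1b and S100a6.

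Markers of whole leukocytes lay on both sides of 0 in tumor epithelium, 4 above and 3 below (median difference 0.17). They ran from −0.58 for Tyrobp to 0.57 for Ptprc. The 7 pan-leukocyte markers averaged 4.57, 4.80 and 4.67 on floxed tumor arrays and 4.51, 4.82 and 4.81 on KO tumor arrays, and 0 of 7 passed. The 11 macrophage and monocyte markers averaged 4.22 to 4.70 on floxed and 4.28 to 4.39 on KO tumor arrays, with 0 of 11 passing. Of these 11 differences, 7 were below 0 and 4 above (median −0.12). Of the other marker lists, only the fibroblast collagen gene Col3a1 passed there, higher in KO (1.21, adjusted p = 0.0478). The part of cell composition in the difference of S100a8 was not tested.

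In adjacent epithelium Il1b was higher in KO than in floxed arrays, and was the only member called. It read 5.48 and 5.55 on the KO arrays and 4.16 and 4.64 on the floxed arrays, so the lowest KO array stood well above the highest floxed one. The difference was 1.11 ± 0.28 (SE, n = 2 and 2), with an adjusted p of 0.0450 by limma. In this comparison 1209 genes passed, 6.06% of those tested, 2.91% higher and 3.15% lower. Both floxed adjacent arrays were weak-signal arrays, so genotype and signal strength cannot be told apart here.

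Mmp8 was again low on KO arrays, at 2.91 and 2.78 against 3.84 and 4.12, and its difference of −1.13 ± 0.30 fell just short (adjusted p = 0.0506). It passed in 6 of 19 alternatives, among them the replicate block (adjusted p = 0.0452). Mmp8 lay above the median of the unnamed probe sets on 0 of 2 floxed and 0 of 2 KO adjacent arrays. For S100a8 this was 2 of 2 floxed and 0 of 2 KO arrays. That median itself differed by −0.37 on average between KO and floxed adjacent arrays. S100a8 read 3.82 on both KO arrays and 4.47 and 4.48 on the floxed arrays, a difference of −0.65 ± 0.31 (adjusted p = 0.195). S100a9 lay the other way, at 5.85 and 6.10 on KO and 5.16 and 5.47 on floxed arrays, a difference of 0.66 ± 0.30 (adjusted p = 0.181). The partners of calprotectin thus had opposite signs in the same arrays, although neither difference passed.

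None of the remaining members passed. Cxcl1 (−0.48), Cxcl2 (−0.49) and Cxcl5 (−0.61) were all below 0, with adjusted p of 0.343 to 0.508. Cxcl5 read 3.54 and 3.33 on KO and 4.12 and 3.97 on floxed arrays, Cxcl2 read 4.41 and 4.24 against 4.41 and 5.21, and Cxcl1 read 4.997 and 5.25 against 5.47 and 5.74. Csf3r (0.21), Cxcr2 (−0.15) and Mmp9 (−0.14) had adjusted p of 0.725 to 0.810. In all, 8 members did not overlap between genotypes, as did 67.1% of all genes. Il1b passed in 8 of 20 alternatives, with values of 0.52 to 1.35 and adjusted p from 0.0131 to 0.429. It did not pass under either reading of the 2 conflicting labels, nor without the dimmest 30% of genes.

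Among the 7 lists of neutrophil, chemokine and related genes, 1 gene was called between genotypes in adjacent epithelium: S100a6, a calcium-binding S100 protein gene, was higher in KO by 2.67 (adjusted p = 0.0242). Granule proteins had a median of −0.31 and surface markers of −0.25, while the median of the unnamed probe sets differed by −0.37 on average between KO and floxed arrays, more than either. Trem1 (−1.52), Stfa3 (−1.09) and Ngp (−0.90) were among the lowest p without passing. Lcn2, which encodes the iron-scavenging protein lipocalin-2 of neutrophils and inflamed epithelium, read 1.22 (adjusted p = 0.0919). Pycard, which encodes the adaptor of inflammasomes that activate interleukin-1beta, read 1.36 (adjusted p = 0.0599). Medians of the other lists were −0.29 for CXC chemokines, 0.14 for upstream signals, −0.07 for interleukin-1beta processing, −0.01 for metalloproteinases and 0.22 for S100 proteins. Mucosal mast cell proteases were called with Il1b, Mcpt1 by 2.53 and Mcpt2 by 2.43, as was the fibroblast gene Dcn (1.53). The other 7 of 9 mast cell markers were below 0. Of the Wnt targets, Notum (2.12), Cd44 (1.82) and Nkd1 (1.54) were also called higher, and 10 of 11 were above 0 (median 1.36). All 11 epithelial markers were above 0 (median 1.80), with 0 called. The part of these in the Il1b difference was not tested.

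Within KO, where no array was of weak signal, Il1b and S100a9 had their highest group means in adjacent epithelium. Il1b read 4.52, 4.35 and 4.12 on the arrays labelled tumor against 5.48 and 5.55 on those labelled adjacent, and S100a9 5.19, 4.99 and 4.96 against 5.85 and 6.10. The tissues did not overlap for either gene, nor for 32.1% of all genes, with 14.1% of all genes lower in tumor. The differences were −1.18 ± 0.26 for Il1b and −0.93 ± 0.28 for S100a9, and neither passed in the fit with all 4 groups (adjusted p = 0.468 and 1.00), in which 4 genes passed, 0.0201% of those tested. Fitted on the 5 KO arrays alone, both passed: Il1b at an adjusted p of 0.0152 and S100a9 at 0.0279. That fit called 368 genes, 1.85%, with 1.29% lower in tumor. S100a8, at 3.85, 3.65 and 3.33 against 3.82 and 3.82, differed by −0.21 there (adjusted p = 0.645).

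The KO adjacent arrays also served in the genotype comparison above, so the high Il1b in both rests on the same 2 arrays. In the fit on KO arrays alone 5 genes of the 7 other lists passed, all lower in tumor. They were Ltf (−0.78), the matrix enzymes Mmp7 (−1.27) and Mmp10 (−0.84), and S100a6 (−2.30) and S100a14 (−1.18). Lcn2 read 4.14, 3.99 and 3.69 on tumor and 4.95 and 6.38 on adjacent arrays, a difference of −1.72 that missed the threshold (adjusted p = 0.0575). Il1rn, which encodes the natural antagonist of the interleukin-1 receptor, differed by −0.73 (adjusted p = 0.0662). The neutrophil genes Ngp (−0.06) and Camp (0.07), the latter encoding the cathelicidin of granules, were close to 0, and 0 of 19 surface and marker genes passed.

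**Figure D4:**
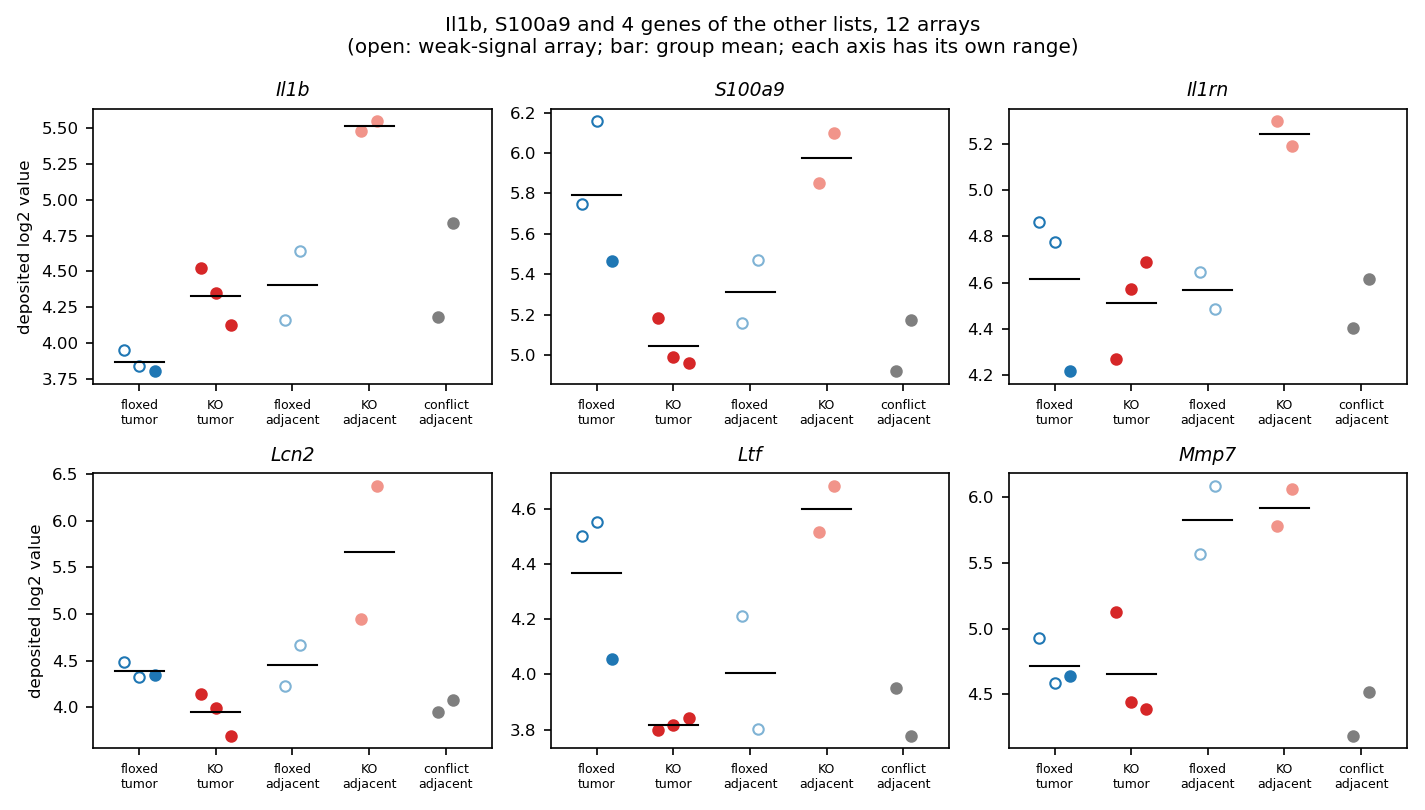
Deposited log2 values of Il1b, S100a9, Il1rn, Lcn2, Ltf and Mmp7 on the 12 arrays by label; open points are weak-signal arrays and bars are group means, and each panel has its own axis range. The 2 KO adjacent arrays lie above the 3 KO tumor arrays for all 6 genes, and both conflict arrays lie below the KO adjacent arrays. The genes were drawn with these values known: Il1b, S100a9, Ltf and Mmp7 passed on the KO arrays alone, and Lcn2 and Il1rn were chosen after. Of all genes, 14.1% lie lower on the KO tumor than on the KO adjacent arrays without overlap.

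Other genes moved with Il1b and S100a9 on these 5 arrays. Mcpt1 (−2.98) and Mcpt2 (−3.20) were lower in tumor, and the 9 mast cell markers averaged 3.39 to 3.56 on tumor and 4.23 to 4.26 on adjacent arrays. The other 7 mast cell markers differed by −0.43 to 0.14, and the median of the list was −0.17. Of the Wnt targets 6 of 11 were called lower in tumor, Cd44, Lgr5, Myc, Nkd1, Notum and Sox9. Epithelial markers split, with Vil1 higher (0.98) and Krt18 lower (−1.74), and the fibroblast gene Dcn was lower (−1.23). Pan-leukocyte, macrophage, T cell and B cell markers had 0 called genes. The part of these in the differences of Il1b and S100a9 was not tested. Conflict array 1, KO by title, read 4.18 for Il1b and 4.92 for S100a9, and conflict array 2, KO by genotype characteristic, read 4.84 and 5.18, so under neither reading did the added array reach the other 2.

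Within floxed, where 4 of the 5 arrays were weak, no member passed, and 1 gene did (0.00502%). Tumor minus adjacent was 0.53 for S100a8 (adjusted p = 0.474), 0.48 for S100a9 (adjusted p = 0.503) and −0.54 for Il1b (adjusted p = 0.420). The tissue difference in KO minus that in floxed was −1.41 ± 0.39 for S100a9, −0.74 for S100a8 and −0.64 for Il1b. None passed by limma (unadjusted p = 0.0043 and adjusted p = 0.703 for S100a9), as 0 of 19938 genes did (0%), while 1281 had an unadjusted p under 0.05. Over all 12 arrays Il1b was 0.71 lower in tumor by point estimate (−0.71 ± 0.27, unadjusted p = 0.0179, adjusted p = 1.00), S100a8 differed by 0.25 and S100a9 by −0.03. Here too limma called 0 genes (0%), with 513 at an unadjusted p under 0.05, and 5 members lay on each side of 0.

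The members did not share one pattern over the arrays. Likeness was measured as the root mean square difference of log2 values, each gene centred on its mean over the 12 arrays, among 17084 genes. Nearest to S100a8 were Tmed11, Prg4 and Rybp (0.23 each), and Mmp8 was the 5th nearest at 0.25. The partner of S100a8, S100a9, stood at rank 3078 with 0.56, nearer than the median gene at 0.73. S100a9 was nearest to Cplane1, to Ltf at 0.22 and to Klhdc2, and Cxcr2 was at rank 101. Il1b was nearest to Sinhcaf, Exosc1 and Itga2, and S100a8 was 1.03 away, farther than the median gene at 0.69. Cxcl1 was nearest to Fam166a, Odf3l2 and Homer3. Cxcl2 was nearest to Ccl22, Fkbp14 and Adamtsl3, with Cxcl5 at rank 385 and Cxcl1, its neighbour with the shared NF-kB-type match, at rank 8558. Cxcl5 was nearest to Syngr3, Cenpp and Sv2c. These distances include the difference between weak-signal arrays and the others, whose direction was not the same for all genes. Cxcl5 read 3.97 to 4.12 on weak-signal arrays and 2.76 to 3.54 on the others. The 11 epithelial markers averaged 4.99 to 5.97 on weak-signal arrays and 6.24 to 7.97 on the others.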

How the data were processed

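Values were the authors' deposited log2 expression values, 1 column per array, made with Partek and RMA (robust multi-array averaging) per the submitters' processing notes, with no version. RNA was labelled with biotin after a GeneChip WT Pico kit, per the labels' protocols. Further normalization or filters are not given in the sources used here, and array precision is limited by the number of arrays. Of 35556 probe sets, 21789 had 1 gene symbol, 1621 several and 12146 none in the platform annotation. Each of 19938 genes took its probe set of highest mean. The 10 arrays in 4 groups were fitted together with limma 3.58.1 (lmFit, eBayes) in R 4.3.3, two-sided, with Benjamini-Hochberg adjustment over all genes, and a call is an adjusted p under 0.05. Tissue over 12 arrays used no covariate. Steps were tested on simulated data, in which all genes of an array had the same spread. Of 50 changes of 1 log2 unit, 4% were called between genotypes in tumor epithelium, 6% in adjacent epithelium and 0% within KO. For changes of 2 log2 units these were 86%, 54% and 74%.

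The members and gene lists were chosen with earlier results of these data known, the Wnt list and Ppard last. Named were all members, called list genes, up to 3 of the smallest p per list, the 3 nearest patterns, and, chosen after their values were seen, S100a4, Camp, Ngp, Lcn2 and Il1rn within KO. Taken as deviations from their group means, same-numbered tumor arrays of the 2 genotypes correlated at 0.105, 0.121 and 0.347 over genes, by title number. The fits given have no block, and the blocked value stands beside a result it changes, since by these correlations the numbers may pair the arrays. No label says what a number shares, and floxed array 2 correlated best with KO array 1 (0.246). With 2 arrays per group the deviations mirror each other, so both adjacent pairs had to give the same value, 0.0099. Alternatives were rescaling, a dim-gene filter, all probe sets, other variance models, array weights, the block, fewer arrays and both readings of the conflicting labels.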

Additional observations from a re-analysis of the deposited data

How the results depend on the processing

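Each comparison was recomputed under up to 23 alternatives. In tumor epithelium, where 1 member passed between genotypes, 2 passed at a threshold of 0.1, with array weights and without weak-signal arrays, and 0 after quantile normalization, scaling, with only the arrays compared or with conflicting labels read by title; leaving out each array gave 0 to 6. In adjacent epithelium, where 1 passed, 2 passed at 0.1, with array weights, with the replicate block and with only the arrays compared, and 0 after quantile normalization, scaling, the dim-gene filter or either reading of the labels; leaving out each array gave 0 to 2. Within KO, 2 passed rather than 0 with array weights, only the arrays compared or no weak-signal arrays, and over all 12 arrays 1 with array weights. Counts of called genes ranged from 0 to 5793 in tumor and 1 to 4903 in adjacent epithelium, 0 to 1042 within KO, 0 to 343 within floxed, 0 to 127 over all arrays and 0 to 1 for the interaction. The replicate block gave 782 and 2450 called genes between genotypes in tumor and adjacent epithelium and changed no other member's call than that of Mmp8 in adjacent epithelium.

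Signs turned for some members in some alternatives, and no value that turned was a call. In tumor epithelium they were Cxcl1 with array weights (0.19) and, without weak-signal arrays, Mmp9 (0.16), Cxcl2 (0.052) and Cxcl5 (0.23); leaving out each array gave −0.64 to 0.22 for Cxcl1 and −0.29 to 0.084 for Mmp9. In adjacent epithelium they were Cxcr2 after quantile normalization (0.49) and scaling (0.26), and Csf3r (−0.20) and Mmp9 (0.062) with labels read by title; leaving out each array gave −0.15 to 0.56 for Csf3r and −0.38 to 0.073 for Cxcr2. Within KO they were Cxcl5 with the block (0.045), Mmp8 (−0.029) and Cxcl2 (0.13) by title, and Cxcl2 by characteristic (0.031). Over all arrays they were S100a9 after quantile normalization (0.070) and scaling (0.088), with −0.18 to 0.10 when each array was left out, and S100a8 with array weights (−0.040). Quantile normalization moved the median of all genes between genotypes in adjacent epithelium from −0.04 to 0.06. The causes were not tested. Each member had 1 probe set, so another could not be tried. Cxcl5 lay at or below the median of unnamed probe sets on 12 arrays, Mmp8 and Cxcr2 on 11, and S100a8 on 6, among them all 5 KO arrays, where array values can understate differences. Leaving out the conflict arrays from the comparison of all arrays was chosen after the data were seen, and called no member.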
